A study of Homo sapiens with 9 samples.

Results

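The genes described here encode the proteins of the mitochondrial ribosome. They are the 78 rows, of 60671 in the deposited expression table, whose gene symbol is MRPL or MRPS followed by a number and at most 1 of the letters A, B and C. That pattern of symbols uses no measured value, but the genes were chosen with earlier results of these data known. By the standard names of ribosomal proteins, 51 of them encode proteins of the large subunit and 26 proteins of the small subunit. MRPS18A and MRPS30 count as large here in spite of their symbols, and MRPS36 is now known as a part of the 2-oxoglutarate dehydrogenase complex and counts as neither. RNA with poly(A) tails was sequenced from AC16 cells, a single human line that came from a fusion of ventricular heart cells and transformed fibroblasts. There were 9 libraries, 3 each from cells kept in low glucose, cells kept in high glucose, and cells kept in high glucose with chrysin, a plant flavonoid. The sources used here give neither the glucose concentrations nor the dose of chrysin and the hours of treatment. The labels do not say whether the 3 libraries of a group came from separate cultures, so what a p-value measures is the variation among these libraries alone, and that may be technical.

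Mitochondria keep ribosomes of their own, which translate the few messenger RNAs encoded in the mitochondrial genome, all of them for membrane proteins of the respiratory chain and ATP synthase. The ribosomal RNAs come from the mitochondrial genome, while the ribosomal proteins come from nuclear genes scattered over the chromosomes, are made in the cytosol and are imported. Some have counterparts in bacterial ribosomes and others arose in the mitochondrial lineage. Inherited defects in several of them, MRPL3, MRPL44, MRPS14 and MRPS22 among them, are known causes of mitochondrial disease with cardiomyopathy.

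Values are FPKM, that is, fragments divided by transcript length and by library size, so levels can be set side by side between genes. Reads recovered from the table came to between 18171842 and 23024300 per library, of which 64991 to 90170 fell on the 78 genes. Differences are log2 fold changes of FPKM + 0.5, a scale that understates the change of low genes, with standard errors (SE) and adjusted p-values from limma over the 16996 genes tested. A gene is said to have risen or fallen where its adjusted p was under 0.05. An exact permutation test of 3 against 3 libraries cannot go below p = 0.1 for a single gene. High glucose library 1 stood apart from the other 2 of its group. Over 10029 genes its log2 difference from them had an SD of 0.157 and 0.163, against 0.126 to 0.148 in the other pairs of replicates. Libraries are named below by group and number, such as high glucose 1. The ribosomal protein genes were higher in that library than in libraries 2 and 3 by a median of 0.07 and 0.06 on the log2 scale. The labels call AC16 a cardiomyocyte line, but of 14 cardiomyocyte markers MYL2, TBX5 and NKX2-5 were at 0 in every library and 3 had a mean of at least 1 FPKM, while all 12 fibroblast markers did.

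The mitochondrial ribosomal protein genes were expressed in these cells at levels within a narrow range. The median of their mean FPKM over all libraries was 40.5, the quartiles were 25.5 and 60.2, and 60 of the 78 lay between 20 and 100. The 78 genes lie on 21 chromosomes. The highest 4 were all of the large subunit: MRPL51 at 206, MRPL33 at 158, MRPL3 at 134.9 and MRPL37 at 125. Large and small subunit genes had medians of 41.4 and 41.6.

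A group of 9 genes fell below 10 FPKM, among them MRPL12, whose protein forms the flexible stalk of the large subunit that recruits translation factors. MRPL12 stood at 3.70, 4.17 and 3.41 FPKM in high glucose and 4.70, 4.08 and 6.21 with chrysin, with a mean of 4.26 ± 0.46 in low glucose (SD, n = 3), from 67 to 139 reads. In the annotation it shares 68.2% of its exonic bases with another gene on the same strand. MRPL53 was above 0 in chrysin 2 alone, where a count of 1 read was assumed, and it shares 45.2% of its exonic bases with CCDC142. It was the 1 gene left out of the test for its low level. The other lowest genes were MRPL46 and MRPL2, with means of 1.86 and 1.94 FPKM. Of the 77 genes tested, 40 share exonic bases with other genes and 13 share at least 20%. The sources used here do not say how reads in shared bases were counted, and its part in the low values was not tested.

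**Figure D1:**
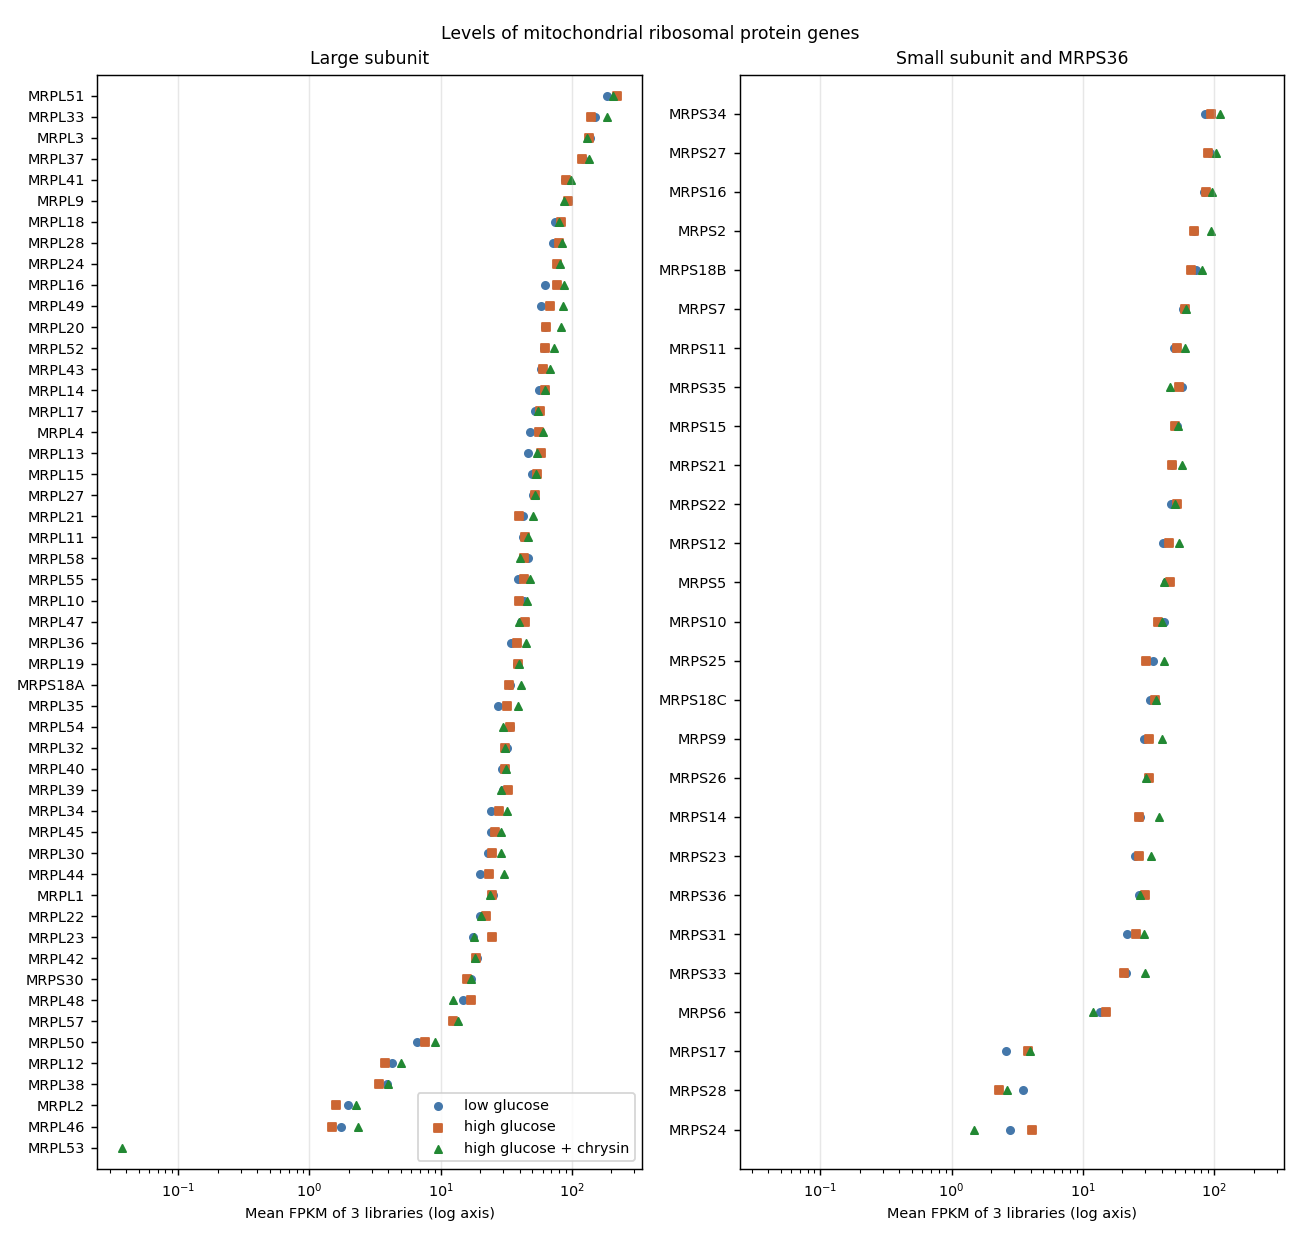
Mean FPKM of 3 libraries on a log axis for each mitochondrial ribosomal protein gene, large subunit on the left, small subunit and MRPS36 on the right, with 1 symbol per group. Most genes lie between 20 and 100 FPKM, and MRPL53, at 0 in low and high glucose, is drawn with chrysin only.

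The summed level of the 78 genes was higher with chrysin than in either other group. It was 3487, 3480.4 and 3452 FPKM in the low glucose libraries 1 to 3, and 3913, 3918 and 3955 with chrysin. In high glucose it was 3789.8, 3547 and 3554, with library 1 far above the other 2. The 3 groups did not overlap. As a share of all FPKM the genes took 0.499% to 0.503% (low glucose), 0.513% to 0.538% (high glucose) and 0.564% to 0.569% (chrysin). The small subunit sum ran from 1078 to 1099.7 FPKM (low glucose), from 1085 to 1149 (high glucose) and from 1242 to 1264 (chrysin), so that low and high glucose overlapped. The ratio of the large to the small subunit sum was 2.15, 2.19 and 2.18 in low glucose, 2.27, 2.24 and 2.23 in high glucose, and 2.12, 2.13 and 2.11 with chrysin. It was thus highest in high glucose and lowest with chrysin, and the 3 groups did not overlap, with or without high glucose 1. In cultured cells sequenced in bulk, fewer cells of a kind and less RNA per cell cannot be told apart.

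**Figure D2:**
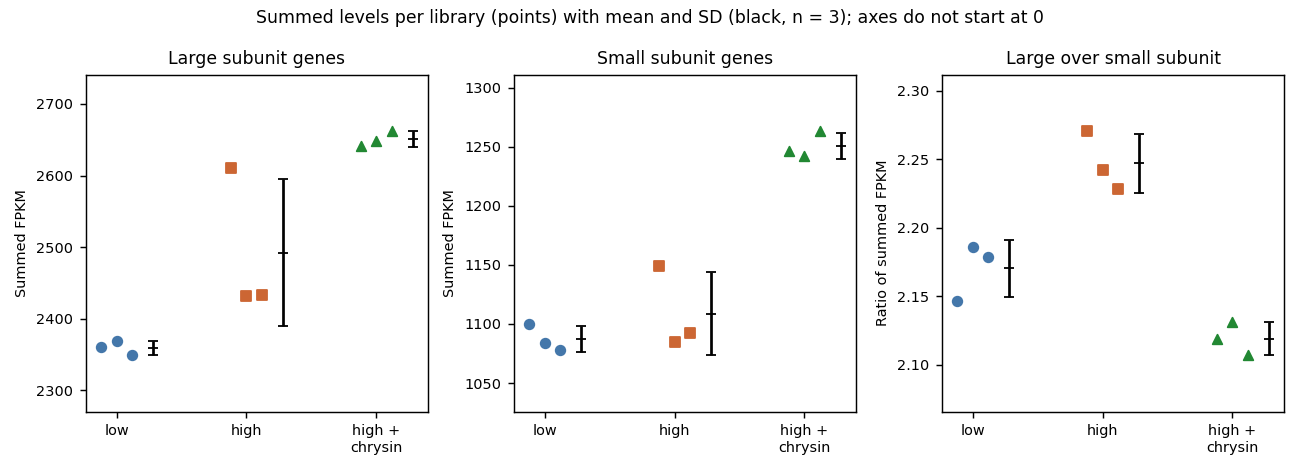
Summed FPKM of the large and small subunit genes and their ratio, as points per library with the group mean and SD (n = 3), on axes that do not start at 0. Chrysin libraries have the highest sums (large 2641 to 2662, small 1242 to 1264) and the lowest ratios (2.11 to 2.13).

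High against low glucose asks how these genes differed with the glucose level. Of the 77 tested, 15 rose and 3 fell (19.5% and 3.90%). Among all 16996 genes 14.6% rose and 8.91% fell (23.5% together), so the share that rose was not far from the background. The median change was 0.06, against 0.02 over all genes, and 50 of the 77 were above 0. All 10 of the large subunit genes called had risen, while the small subunit had 5 risen and 3 fallen. The difference between the subunits was not tested. Without high glucose 1 the counts were 10 risen and 6 fallen, of which 9 and 2 were of the large and 1 and 4 of the small subunit. With limma voom on recovered reads they were 9 and 4.

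Chrysin with high glucose against high glucose asks how they differed when chrysin was present. More genes were called here: 31 rose and 7 fell (40.3% and 9.09%), where 24.9% of all genes rose and 20.9% fell (45.8% together). The median change was 0.12, against 0.03 over all genes. In the large subunit 16 of 50 rose and 3 fell, and in the small subunit 15 of 26 rose and 4 fell. Among small subunit genes without a bacterial counterpart 7 of 10 rose and 1 fell. Without high glucose 1 the totals were 37 risen and 6 fallen. Against low glucose, the chrysin libraries had 41 of the 77 genes risen and 5 fallen (53.2% and 6.49%), beside 29.7% and 21.3% of all genes (51% together). With median-of-ratios scaling that split was 34 and 10, and with limma voom 35 and 11. The comparisons share libraries, so their counts are not independent of each other. Groups of 3 whose values do not overlap, as given below for single genes, are common in these data. That held for 37.9% of all genes tested in high against low glucose, 54.3% with chrysin against high glucose and 60% with chrysin against low glucose.

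Some other features of the chrysin libraries moved along with these counts. The share of reads from the mitochondrial genome was 2.79% to 2.90% (low glucose), 2.80% to 3.04% (high glucose) and 3.80% to 3.89% (chrysin). The summed level of the 12 fibroblast markers ran from 8591 to 8855 FPKM (low glucose), from 9904 to 10310.3 (high glucose) and from 6952 to 7111 (chrysin), and 9 of them fell and none rose with chrysin against high glucose. The 6 smooth muscle markers summed to 295 to 308 FPKM (low glucose), 299.97 to 323 (high glucose) and 418 to 424 (chrysin). They did not move as 1: of 5 tested, 3 rose and 1 fell with chrysin against high glucose (log2 fold changes from -0.71 to 1.72). In that comparison 24.9% of all genes tested rose and 20.9% fell. The sum of the 14 cardiomyocyte markers did not set the chrysin libraries apart from high glucose. It ran from 28.3 to 29.3 FPKM (low glucose), from 22.6 to 24.99 (high glucose) and from 23.9 to 25.9 (chrysin). Macrophage and endothelial marker sums stayed under 6 FPKM in every library. Their part in the changes of the ribosomal protein genes was not tested.

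**Figure D3:**
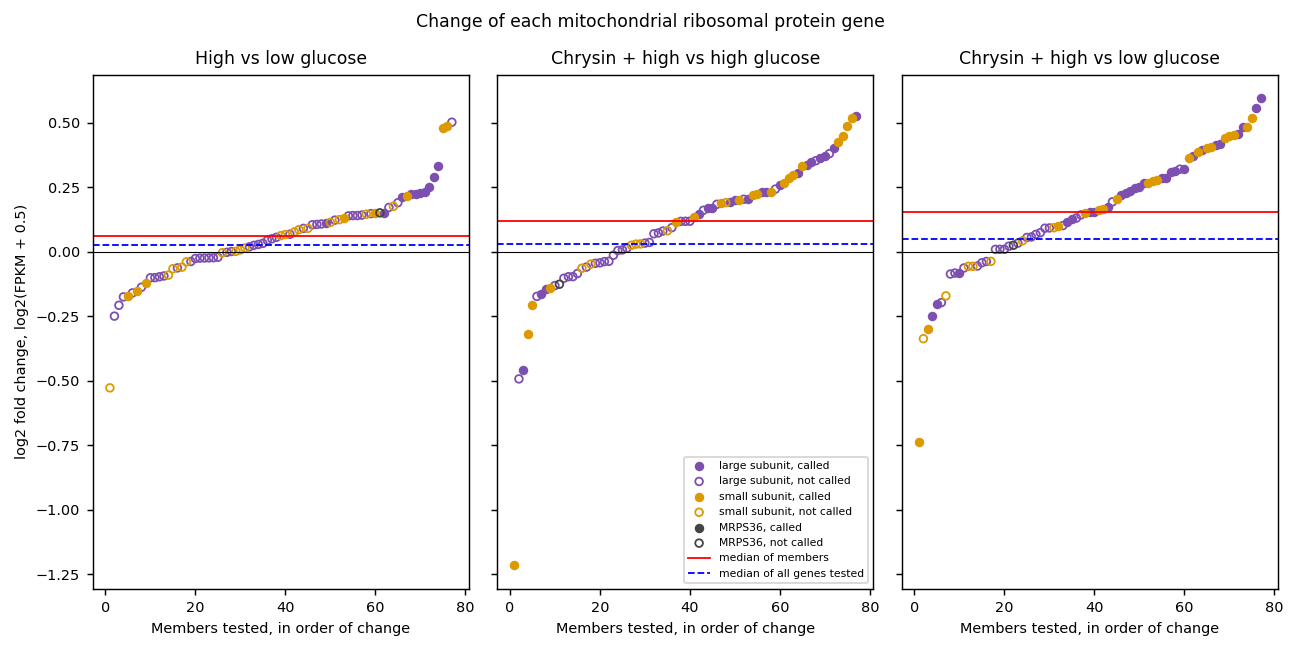
Log2 fold change of FPKM + 0.5 for each of the 77 genes tested, ordered within each comparison, filled where called, with the median of these genes (solid) and of all 16996 genes (dashed). The medians of these genes are 0.06, 0.12 and 0.15 against 0.02, 0.03 and 0.05 over all genes, and 1 small subunit gene, MRPS24, lies far below the others with chrysin.

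The exit tunnel of the large subunit is the channel through which the new chain leaves toward the inner membrane. MRPL44 encodes a protein with an RNase III-like fold near the tunnel exit (chromosome 2, 223957404 to 223967714, plus strand, hg38). It stood at 20.4, 19.5 and 19.7 FPKM in low glucose, 23.5, 23.7 and 23.2 in high glucose and 27.95, 32.2 and 31.1 with chrysin. The 3 groups did not overlap and rose in that order. It was 1.17 times as high in high as in low glucose (log2 fold change 0.23, SE 0.05, adjusted p = 0.0096) and 1.29 times as high with chrysin as in high glucose (log2 fold change 0.37, SE 0.05, adjusted p = 0.00023). Against low glucose the chrysin libraries were higher by 0.60 (adjusted p = 5.1e-06), the highest change of any member in that comparison. MRPL39, of the same region, stood at 31.1, 30.2 and 28.04 FPKM in low glucose, 33.8, 30.8 and 32.8 in high glucose and 28.2, 29.1 and 29.4 with chrysin. It fell with chrysin against high glucose (log2 fold change -0.17, SE 0.05, adjusted p = 0.019), but not without high glucose 1 or 3 or chrysin 1 (-0.14, -0.16 and -0.15, adjusted p = 0.061, 0.053 and 0.066). MRPL23, whose bacterial counterpart lines the tunnel exit, had the widest spread between replicates of all members above 10 FPKM. Its libraries ran 10.04, 22.5 and 20.8 FPKM in low glucose, 27.04, 30.5 and 16.7 in high glucose and 14.5, 28.2 and 11.7 with chrysin, and no comparison passed the test (0.36, 0.29 and 0.98 as adjusted p).

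The central protuberance is the crown of the large subunit, next to the tRNA binding sites. MRPL46, MRPL48 and MRPL38 encode parts of it. MRPL48 stood at 15.3, 13.4 and 15.7 FPKM in low glucose, 17.7, 17.7 and 16.2 in high glucose and 12.5, 12.5 and 12.04 with chrysin. The 3 groups did not overlap, and the chrysin libraries were the lowest. With chrysin it was lower than in high glucose by a factor of 1.38 (log2 fold change -0.46, SE 0.07, adjusted p = 0.00022) and also lower than in low glucose (log2 fold change -0.25, adjusted p = 0.0091). Its rise in high glucose (0.21, adjusted p = 0.041) was lost in 12 of 19 alternatives. Among them were leaving out low glucose 1 or 2, high glucose 1 or 2, or any 1 chrysin library (adjusted p = 0.056 to 0.13). MRPL46, from only 36 to 111 reads, stood at 1.93, 1.78 and 1.55 FPKM in low glucose, 2.06, 1.38 and 1.03 in high glucose and 2.32, 1.88 and 2.80 with chrysin. Its groups overlapped, and its rise with chrysin (log2 fold change 0.53, SE 0.19, adjusted p = 0.044) was lost in 10 of the 18 alternatives in which it was tested. Those included leaving out any 1 low glucose library, high glucose 2 or 3 or chrysin 1 or 3 (adjusted p = 0.053 to 0.16). MRPL38 ran 4.45, 3.49 and 3.84 FPKM in low glucose, 3.39, 3.42 and 3.40 in high glucose and 3.92, 4.97 and 3.11 with chrysin and was not called in any comparison.

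MRPL10 anchors the stalk formed by MRPL12. MRPL10 stood at 44.8, 45.5 and 40.6 FPKM in low glucose, 42.3, 39.1 and 37.4 in high glucose and 44.3, 46.6 and 45.1 with chrysin. It rose with chrysin against high glucose (log2 fold change 0.19, SE 0.05, adjusted p = 0.013), and those groups did not overlap. The call was lost without high glucose 3 (0.16, adjusted p = 0.052) and without chrysin 2 (0.18, 0.0503). Its difference in high glucose (-0.14, adjusted p = 0.097) passed only without low glucose 3 (-0.19, 0.038) or high glucose 1 (-0.18, 0.032), among the libraries left out in turn. MRPL12 itself was not called (0.35, adjusted p = 0.06 with chrysin against high glucose), but passed without chrysin 2 (0.48, adjusted p = 0.022).

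Several proteins of the body of the large subunit rose in high glucose and kept or added to that level with chrysin. MRPL16, whose counterpart binds near the peptidyl transferase centre late in assembly (chromosome 11, 59806135 to 59810872, minus strand), stood at 62.6, 62.3 and 63.8 FPKM in low glucose, 81.5, 76.9 and 72.6 in high glucose and 87.5, 87.5 and 84.8 with chrysin. All 3 groups were apart, with changes of 0.29 (SE 0.04, adjusted p = 0.0006) in high glucose and 0.17 (adjusted p = 0.0056) with chrysin added. MRPL49 (chromosome 11, 65122183 to 65127371, plus strand) followed the same order with 55.7, 57.9 and 62.03 FPKM in low glucose, 67.7, 69.3 and 68.3 in high glucose and 86.5, 86.01 and 86.8 with chrysin. Its changes were 0.22 (adjusted p = 0.002) and 0.34 (adjusted p = 4.4e-05), and 0.56 against low glucose (adjusted p = 8.7e-07). MRPL35, with a bacterial counterpart, stood at 27.7, 27.3 and 27.7 FPKM in low glucose, 32.1, 32.04 and 32.7 in high glucose and 39.3, 36.6 and 40.2 with chrysin. It rose in high glucose (log2 fold change 0.22, SE 0.04, adjusted p = 0.0029) and again with chrysin (log2 fold change 0.26, SE 0.04, adjusted p = 0.00044), with no overlap between groups. MRPL4, a core protein, stood at 45.2, 50.9 and 48.1 FPKM in low glucose, 58.9, 53.8 and 56.3 in high glucose and 60.98, 58.4 and 60.97 with chrysin. It rose in high glucose (log2 fold change 0.23, SE 0.05, adjusted p = 0.0067) and was not called with chrysin against high glucose (0.09, adjusted p = 0.14), where the groups overlapped.

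MRPL13 and MRPL51 had their highest means in high glucose. MRPL13, a core protein with a bacterial counterpart, stood at 46.6, 46.7 and 44.9 FPKM in low glucose, 57.04, 56.4 and 61.3 in high glucose and 57.3, 55.3 and 50.9 with chrysin. It had the largest rise in high glucose of any member above 10 FPKM that was called (log2 fold change 0.33, SE 0.05, adjusted p = 0.00078), and with chrysin it differed from high glucose by -0.10 (adjusted p = 0.13), not called. MRPL51, the highest member and without a bacterial counterpart (chromosome 12, 6491886 to 6493841, minus strand), stood at 179, 196 and 187 FPKM in low glucose, 241, 214 and 213 in high glucose and 206, 201 and 217 with chrysin. It rose in high glucose (log2 fold change 0.25, SE 0.05, adjusted p = 0.0058). Its rise with chrysin against low glucose (0.15, adjusted p = 0.03) was lost in 10 of 19 alternatives, among them leaving out low glucose 1 or 3 or chrysin 1 or 3 (adjusted p = 0.055 to 0.11). It shares 31.3% of its exonic bases with NCAPD2 on the other strand.

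MRPL33 and MRPL20 rose in both comparisons with chrysin but had no call for high against low glucose. MRPL33, a small protein near the exit site for tRNA, stood at 157, 141 and 149 FPKM in low glucose, 145, 133 and 141 in high glucose and 183, 193 and 179 with chrysin. It was 1.32 times as high with chrysin as in high glucose (log2 fold change 0.40, SE 0.05, adjusted p = 4.5e-05), while low and high glucose overlapped (-0.09, adjusted p = 0.18). MRPL20, a core protein that binds ribosomal RNA early in assembly, stood at 62.1, 62.95 and 61.6 FPKM in low glucose, 65.4, 63.8 and 63.4 in high glucose and 81.03, 81.9 and 87.1 with chrysin. It was higher with chrysin than in high glucose by 0.37 (SE 0.03, adjusted p = 8.9e-06).

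MRPL3 and MRPL58 fell by small amounts with chrysin against low glucose. MRPL3, a core protein near the peptidyl transferase centre, stood at 139, 138 and 139 FPKM in low glucose, 137, 134 and 134 in high glucose and 131, 129.6 and 132 with chrysin. The chrysin libraries lay below all low glucose ones by a narrow margin. The difference of -0.08 passed the test (SE 0.02, adjusted p = 0.015), though not without chrysin 2 (-0.07, adjusted p = 0.057). MRPL58, a peptidyl-tRNA hydrolase that releases stalled ribosomes and is also built into the large subunit, stood at 44.8, 48.7 and 45.5 FPKM in low glucose, 48.6, 43.7 and 37.8 in high glucose and 41.3, 39.1 and 39.98 with chrysin. It fell with chrysin against low glucose (log2 fold change -0.20, SE 0.07, adjusted p = 0.042), a call lost in 8 of 19 alternatives. Those were no filter and leaving out any 1 low glucose library, high glucose 2, or any 1 chrysin library (adjusted p = 0.056 to 0.14). Against high glucose it passed only without high glucose 3 (-0.20, adjusted p = 0.017). MRPL41 stood at 87.1, 91.1 and 89.3 FPKM in low glucose, 101, 88.3 and 84.1 in high glucose and 102, 95.1 and 98.2 with chrysin, and its change with chrysin against low glucose was 0.14, adjusted p = 0.058. MRPL41 passed in that comparison without high glucose 1 (0.14, adjusted p = 0.006) or 3 (0.14, 0.032), and against high glucose without library 1 (0.19, 0.0028). MRPS30 ran 16.9, 17.3 and 16.5 FPKM in low glucose, 14.9, 15.9 and 16.6 in high glucose and 17.1, 16.5 and 18.01 with chrysin and was not called in any comparison.

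In the small subunit the largest rises with chrysin were in MRPS33, MRPS14, MRPS25 and MRPS2. MRPS33 (chromosome 7, 141002610 to 141015228, minus strand) stood at 21.8, 22.00 and 20.6 FPKM in low glucose, 20.5, 20.9 and 20.1 in high glucose and 30.3, 29.2 and 29.2 with chrysin. The chrysin libraries were 1.43 times as high as high glucose (log2 fold change 0.52, SE 0.04, adjusted p = 4.6e-06), and low and high glucose overlapped. MRPS14, of the head near the decoding site (chromosome 1, 175010789 to 175023425, minus strand), stood at 27.5, 27.9 and 25.8 FPKM in low glucose, 26.4, 27.2 and 27.3 in high glucose and 38.6, 37.8 and 37.8 with chrysin. It was 1.4 times as high with chrysin as in high glucose (log2 fold change 0.49, SE 0.04, adjusted p = 4.6e-06) and did not differ between low and high glucose beyond its spread (adjusted p = 0.96). MRPS2, which joins the small subunit late in assembly, stood at 73.9, 66.1 and 70.1 FPKM in low glucose, 76.2, 65.9 and 70.3 in high glucose and 98.8, 92.5 and 94.2 with chrysin, higher with chrysin by 0.43 (SE 0.06, adjusted p = 0.00011). MRPS9, whose bacterial counterpart reaches toward the tRNA in the peptidyl site, stood at 30.03, 28.9 and 28.8 FPKM in low glucose, 31.8, 30.9 and 32.4 in high glucose and 38.3, 41.1 and 40.9 with chrysin. It rose by 0.33 against high glucose (SE 0.04, adjusted p = 7.4e-05) and by 0.45 against low glucose (adjusted p = 6.6e-06).

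MRPS25, MRPS18B and MRPS10 were lowest in high glucose. MRPS25 stood at 36.5, 32.6 and 34.2 FPKM in low glucose, 31.6, 29.6 and 30.2 in high glucose and 41.5, 42.1 and 41.7 with chrysin. It fell in high glucose (log2 fold change -0.17, SE 0.05, adjusted p = 0.019) and was 1.36 times as high with chrysin as in high glucose (log2 fold change 0.45, SE 0.05, adjusted p = 1.9e-05). The fall was lost without low glucose 1 or 3 or high glucose 2 or 3 (-0.13, -0.18, -0.15 and -0.17, adjusted p = 0.074, 0.0502, 0.068 and 0.051). With only the groups compared it was also lost (adjusted p = 0.058). MRPS18B stood at 73.98, 70.1 and 73.7 FPKM in low glucose, 67.4, 67.3 and 65.4 in high glucose and 80.9, 80.97 and 82.6 with chrysin. It fell in high glucose (log2 fold change -0.12, SE 0.03, adjusted p = 0.019), but not without low glucose 1 or 3 or high glucose 3 (-0.11 in each, adjusted p = 0.072, 0.0698 and 0.059), and rose with chrysin (log2 fold change 0.29, SE 0.03, adjusted p = 3.4e-05). MRPS10 stood at 41.2, 41.2 and 41.8 FPKM in low glucose, 36.4, 37.4 and 37.8 in high glucose and 40.2, 40.8 and 40.05 with chrysin, with changes of -0.15 in high glucose (SE 0.03, adjusted p = 0.0063) and 0.12 with chrysin (adjusted p = 0.013). That rise with chrysin was lost with limma voom (0.08, adjusted p = 0.087). The other paralogs of MRPS18B did not share its pattern of calls. MRPS18A ran 34.8, 34.00 and 32.8 FPKM in low glucose, 35.6, 33.4 and 31.1 in high glucose and 41.4, 41.03 and 41.6 with chrysin, rising with chrysin (log2 fold change 0.31, SE 0.05, adjusted p = 0.00043), and shares 47% of its exonic bases with RSPH9. MRPS18C ran 31.4, 33.4 and 32.4 FPKM in low glucose, 38.2, 33.5 and 34.6 in high glucose and 35.6, 36.7 and 35.8 with chrysin. Its rise with chrysin against low glucose (0.15, adjusted p = 0.027) was lost without low glucose 1 or 3 or chrysin 2 or 3 (adjusted p = 0.056 to 0.092) and under both other scalings.

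MRPS24, MRPS35, MRPS6 and MRPS5 fell with chrysin. MRPS24, the counterpart of the bacterial protein at the messenger RNA entry channel, stood at 2.70, 2.58 and 3.08 FPKM in low glucose, 4.44, 3.87 and 3.92 in high glucose and 1.15, 1.51 and 1.80 with chrysin, from 18 to 77 reads. With chrysin it was lower than in high glucose by a factor of 2.32 on the log2(FPKM + 0.5) scale (log2 fold change -1.22, SE 0.13, adjusted p = 3.4e-05), the largest change of any member in any comparison. Its rise in high glucose (0.48, adjusted p = 0.025) was lost without low glucose 1 or 2 or any 1 high glucose library (0.42 to 0.51, adjusted p = 0.0501 to 0.0801). It shares 23.2% of its exonic bases with the readthrough gene URGCP-MRPS24, which was at 0 in every library. MRPS35 stood at 55.7, 56.7 and 59.6 FPKM in low glucose, 55.3, 55.6 and 50.7 in high glucose and 43.3, 48.4 and 48.02 with chrysin, lower with chrysin than in high glucose (log2 fold change -0.21, SE 0.05, adjusted p = 0.008) and than in low glucose (-0.30, adjusted p = 0.00073). MRPS6 stood at 14.7, 13.1 and 13.03 FPKM in low glucose, 15.3, 15.01 and 14.96 in high glucose and 11.3, 11.7 and 13.1 with chrysin and fell with chrysin against high glucose (log2 fold change -0.32, SE 0.07, adjusted p = 0.0028). MRPS5, which lies at the entry of the messenger RNA channel, stood at 43.1, 42.5 and 44.3 FPKM in low glucose, 47.9, 44.99 and 45.2 in high glucose and 41.8, 42.4 and 40.7 with chrysin and fell by a small amount (log2 fold change -0.14, SE 0.04, adjusted p = 0.0093). MRPL47, of the large subunit near the tunnel exit, fell to a like extent, from 43.9, 44.2 and 43.5 in high glucose to 37.8, 40.6 and 40.7 FPKM with chrysin (log2 fold change -0.14, SE 0.04, adjusted p = 0.0099).

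MRPS12 sits at the decoding centre, where its bacterial counterpart checks the fit of codon and anticodon. It stood at 40.8, 43.9 and 36.9 FPKM in low glucose, 47.1, 45.6 and 44.6 in high glucose and 56.7, 49.98 and 54.2 with chrysin. It rose with chrysin against high glucose (log2 fold change 0.22, SE 0.06, adjusted p = 0.014), but not without chrysin 1 (0.18, adjusted p = 0.057). Its difference in high glucose did not pass (0.18, adjusted p = 0.07). It passed without low glucose 2 (0.24, adjusted p = 0.026) and with a filter at a mean of 5 FPKM (0.18, 0.037). MRPS22 stood at 48.9, 44.7 and 47.1 FPKM in low glucose, 53.2, 51.2 and 51.9 in high glucose and 49.8, 50.1 and 51.1 with chrysin. It rose in high glucose (log2 fold change 0.15, SE 0.04, adjusted p = 0.016), but not without low glucose 2 (0.12, adjusted p = 0.062). Against low glucose its rise with chrysin (0.10, adjusted p = 0.045) was lost in 11 of 19 alternatives, among them leaving out low glucose 2 or 3, high glucose 2 or 3, or any 1 chrysin library (adjusted p = 0.054 to 0.17). MRPS17, from 54 to 108 reads, stood at 2.83, 2.64 and 2.26 FPKM in low glucose, 4.24, 3.64 and 3.57 in high glucose and 4.70, 3.25 and 3.85 with chrysin. It rose in high glucose (log2 fold change 0.49, SE 0.13, adjusted p = 0.022), but not without low glucose 3 (0.41, adjusted p = 0.081) or high glucose 1 (0.42, 0.072), and with chrysin it differed from high glucose by 0.03 (adjusted p = 0.87). MRPS36 ran 26.8, 28.3 and 25.1 FPKM in low glucose, 29.9, 30.1 and 29.1 in high glucose and 25.7, 27.1 and 28.8 with chrysin and was not called in any comparison. It passed without low glucose 2 in high glucose (0.19, adjusted p = 0.043) and without chrysin 3 with chrysin (-0.17, 0.042).

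**Figure D4:**
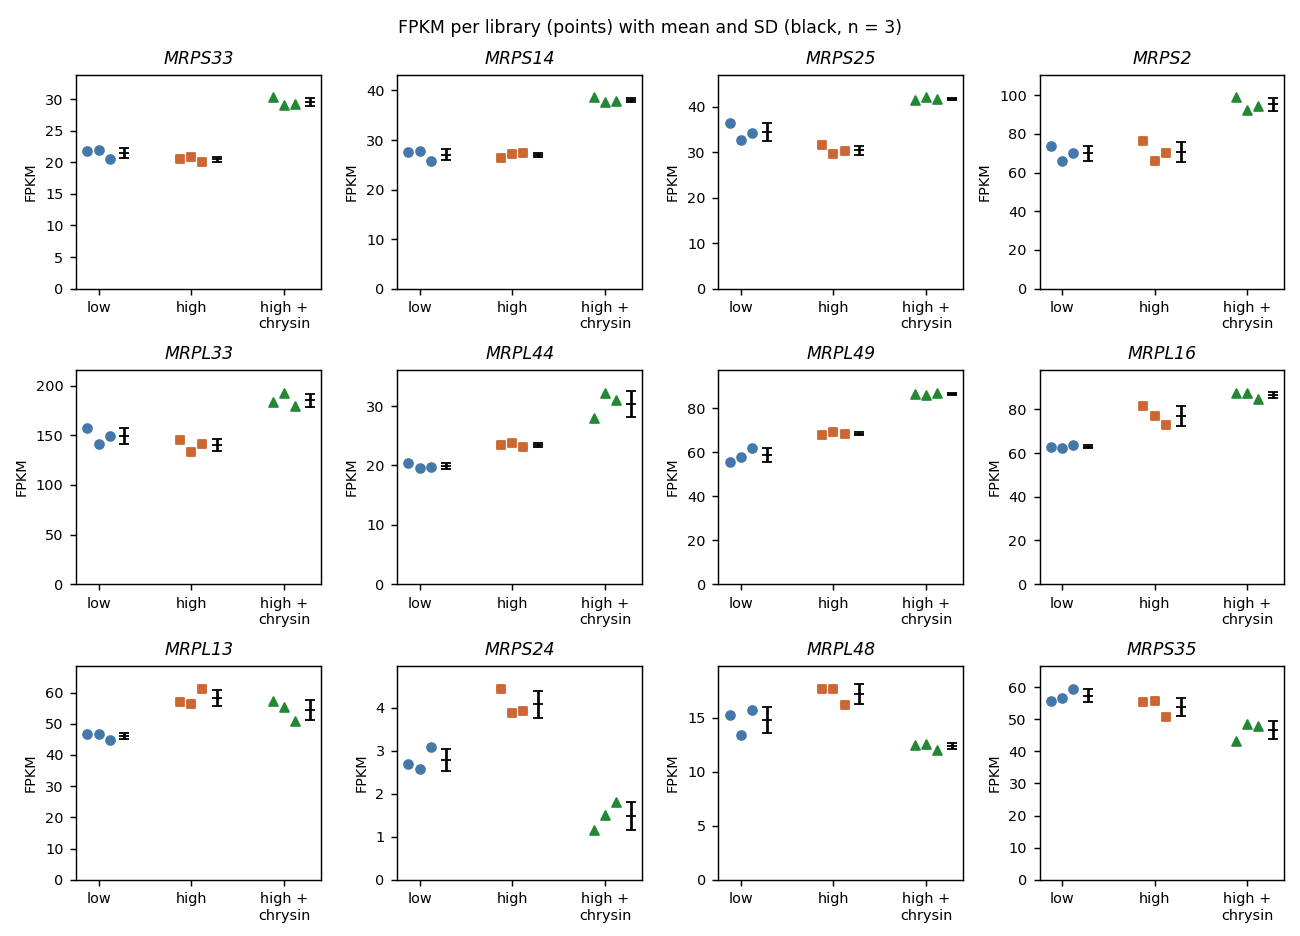
FPKM of 12 mitochondrial ribosomal protein genes in each library, with the group mean and SD (n = 3), on axes that start at 0. In MRPS33, MRPS14, MRPS2 and MRPL33 the chrysin libraries lie above all others, MRPL44, MRPL49 and MRPL16 rise from group to group, and MRPS24, MRPL48 and MRPS35 are lowest with chrysin.

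Of the other members, MRPS34 ran 90.04, 84.9 and 83.1 FPKM in low glucose, 97.97, 92.9 and 91.7 in high glucose and 107, 112 and 114 with chrysin. MRPL37 ran 118, 125 and 119.7 FPKM in low glucose, 123, 114 and 119.6 in high glucose and 134, 139 and 136 with chrysin. MRPL36, among the smallest proteins of the large subunit, ran 34.7, 34.1 and 35.3 FPKM in low glucose, 41.03, 36.1 and 37.9 in high glucose and 46.4, 44.1 and 44.7 with chrysin. All of these were higher with chrysin than in high glucose without overlap, by 0.23, 0.20 and 0.23 (adjusted p = 0.00077, 0.0009 and 0.0022). MRPL2, a core protein listed at under 3 FPKM from 20 to 47 reads, ran 2.17, 1.73 and 1.98 FPKM in low glucose, 1.24, 1.97 and 1.55 in high glucose and 2.81, 1.35 and 2.67 with chrysin. It was not called, but rose with chrysin without chrysin 2 (0.65, adjusted p = 0.012).

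Start regions are shown because 31 members rose with chrysin against high glucose. RefSeq (GRCh38.p14) windows from 250 bases before to 50 after a start were at hand for 69 of the 78 genes. Factors of the ETS family, such as GABP, and the factors NRF1 and YY1 are known regulators of nuclear genes for mitochondrial proteins. Each motif was searched on both strands, and matches of different motifs were counted apart even where they overlapped. The ETS motif CCGGAAG was found for 30 of the 69 genes (43.5%), against 22.2% of the tested genes with a window. The YY1 motif (AA, any base, then ATGGCGG) was found for 18 (26.1%), against 5.38%. The NRF1 motif (GCGC, any 2 bases, then GCGC) was found for 10 (14.5%), against 18.1%. In all 27305 genes with a window the shares were 12.2%, 2.57% and 9.98%. Among the tested members with a window, the ETS motif was present in 15 of 28 that rose with chrysin against high glucose, 2 of 7 that fell and 12 of 33 not called. Such a match is a description of the letters, not evidence of binding. Of the 18 YY1 matches 15 reached past the start, so the 120 bases before it, printed here, hold few of them.

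Capitals mark matches of the ETS, NRF1 or YY1 motif, on either strand, in the 120 bases before the start, read in the direction of the gene. MRPS14, MRPL33, MRPL20, MRPS34 and MRPL36 rose with chrysin, MRPL48 and MRPS24 fell, and MRPS11 rose and shares its region with MRPL46.
MRPS14 (chr1:175023426-175023545, minus strand): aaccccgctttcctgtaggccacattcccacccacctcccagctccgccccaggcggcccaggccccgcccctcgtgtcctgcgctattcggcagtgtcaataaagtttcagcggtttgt
MRPL33 (chr2:27771599-27771718, plus strand): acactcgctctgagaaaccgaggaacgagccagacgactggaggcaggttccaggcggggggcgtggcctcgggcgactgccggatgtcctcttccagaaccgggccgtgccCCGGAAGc
MRPL20 (chr1:1407294-1407413, minus strand): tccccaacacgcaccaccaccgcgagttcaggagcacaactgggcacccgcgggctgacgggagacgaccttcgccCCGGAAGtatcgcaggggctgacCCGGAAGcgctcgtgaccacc
MRPS34 (chr16:1773135-1773254, minus strand): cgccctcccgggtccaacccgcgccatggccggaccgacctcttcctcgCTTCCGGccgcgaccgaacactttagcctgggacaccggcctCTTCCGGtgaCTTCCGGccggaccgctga
MRPL36 (chr5:1799838-1799957, minus strand): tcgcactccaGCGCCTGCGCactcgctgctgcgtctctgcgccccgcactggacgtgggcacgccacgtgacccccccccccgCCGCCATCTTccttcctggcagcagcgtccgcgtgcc
MRPS11 (chr15:88467588-88467707, plus strand): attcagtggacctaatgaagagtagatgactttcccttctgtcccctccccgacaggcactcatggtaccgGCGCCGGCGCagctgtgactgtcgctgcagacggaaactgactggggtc
MRPL48 (chr11:73787754-73787873, plus strand): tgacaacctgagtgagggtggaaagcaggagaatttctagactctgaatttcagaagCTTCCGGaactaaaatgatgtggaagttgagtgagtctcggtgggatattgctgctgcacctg
MRPS24 (chr7:43869518-43869637, minus strand): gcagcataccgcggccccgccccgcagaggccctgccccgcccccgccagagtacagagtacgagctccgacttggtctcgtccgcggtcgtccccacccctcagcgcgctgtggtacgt

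The members with the 5 largest rises among those called with chrysin against high glucose, MRPL46, MRPS33, MRPS14, MRPS25 and MRPS2, hold none of the 3 motifs in the 120 bases before any start in the table, as the MRPS14 stretch shows. MRPL33 and MRPL20 carry ETS matches near the start, and MRPS34 carries 3. MRPL36 carries 1 NRF1 and 1 YY1 match. MRPL48, which fell, also carries an ETS match, and MRPS24 carries none of the 3 motifs in its 120 bases. MRPL46 and MRPS11 are the 1 pair, among members with a window, whose RefSeq starts lie head to head within 1000 bases, on chromosome 15 with 319 bases between them. Their levels were far apart, with MRPS11 at 49.4 ± 2.4, 52.1 ± 3 and 59.9 ± 0.88 FPKM (SD, n = 3) in low glucose, high glucose and with chrysin, and MRPL46 at 1.75 ± 0.19, 1.49 ± 0.52 and 2.33 ± 0.46. MRPS11 rose with chrysin against high glucose (log2 fold change 0.20, SE 0.05, adjusted p = 0.0054).

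Genes that encode these factors and other regulators of mitochondrial genes were called in both directions. GABPA, the DNA-binding subunit of GABP, stood at 11.6, 12.3 and 10.9 FPKM in low glucose, 12.6, 12.4 and 13.1 in high glucose and 9.40, 9.89 and 10.01 with chrysin and fell with chrysin against high glucose (-0.36, adjusted p = 0.00055). Its partner GABPB1 fell too (-0.24, adjusted p = 0.0043). YY1 rose by 0.22 in high glucose (adjusted p = 0.002), and with chrysin it fell (-0.15, adjusted p = 0.0062). NRF1 was not called (-0.21, adjusted p = 0.062 with chrysin) but passed without chrysin 1 (-0.31, adjusted p = 0.009) and with limma voom (-0.26, 0.011). NRF1 passed as well with median-of-ratios scaling (-0.23, adjusted p = 0.045). So it did with the replicate block, alone or with the GC and length correction (-0.21 in each, 0.049 and 0.047). MYC, a general driver of ribosome production, had a log2 fold change of -0.72 in high glucose (adjusted p = 4.8e-06) and of -0.37 with chrysin (adjusted p = 0.0001). PPARGC1A, the coactivator known for mitochondrial biogenesis, had group means of 0.658, 0.390 and 0.840 FPKM in low glucose, high glucose and with chrysin. It was not called (0.57, adjusted p = 0.054 with chrysin), but passed with limma voom (0.98, adjusted p = 0.036). It also passed with the GC and length correction, alone or with the replicate block (0.61 in each, 0.042 and 0.041). Of all 19 genes of mitochondrial transcription and biogenesis, 4 rose and 4 fell with chrysin against high glucose (21.1% each). The 4 that fell are GABPA, GABPB1, YY1 and MYC, named above. ESRRA and MTERF2 were among the 4 that rose, and both had smaller p-values from limma than GABPA. Over all genes 24.9% rose and 20.9% fell, so these shares were near the background.

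The mitochondrial ribosome holds proteins that do not carry an MRP symbol. Of the 5 of them tested, 2 rose and 1 fell in each comparison (40% and 20%). Over all genes 14.6% rose and 8.91% fell in high against low glucose. With chrysin the shares over all genes were 24.9% and 20.9% against high glucose and 29.7% and 21.3% against low glucose. DAP3, a GTP-binding protein of the small subunit, stood at 123, 127 and 131 FPKM in low glucose, 115, 117 and 121 in high glucose and 134, 131 and 135 with chrysin. DAP3 fell in high glucose (-0.11, adjusted p = 0.022), but not without low glucose 2 or 3 or high glucose 2 (adjusted p = 0.0597, 0.088 and 0.063), and rose with chrysin (0.18, adjusted p = 0.00071). The fall of DAP3 was also lost with only the groups compared (adjusted p = 0.053). CHCHD1 rose in both comparisons, by 0.27 (adjusted p = 0.0033) and 0.20 (adjusted p = 0.0074). AURKAIP1, of the small subunit, rose in high glucose (0.16, adjusted p = 0.0069) and was not called with chrysin against high glucose (0.02, adjusted p = 0.59). GADD45GIP1, of the large subunit, fell with chrysin against high glucose (-0.25, adjusted p = 0.021), but not without high glucose 1 (-0.18, adjusted p = 0.073) or chrysin 1 (-0.17, 0.075), with the groups compared alone in the fit (0.052), or without a filter (0.056). Against low glucose the fall of GADD45GIP1 with chrysin (-0.23, adjusted p = 0.025) was lost without low glucose 1 or 3, chrysin 1 or a filter (adjusted p = 0.058 to 0.093). PTCD3, a small subunit protein that binds RNA, was not called (-0.01, adjusted p = 0.85 with chrysin). The ribosomal RNAs that these proteins wrap were read in poly(A) libraries only. MT-RNR2, of the large subunit, stood at 3974, 4035 and 4296 FPKM in low glucose, 2942, 2766 and 2689 in high glucose and 3786, 3864 and 4095 with chrysin, falling in high glucose (-0.55, adjusted p = 1.2e-05) and rising with chrysin (0.48, adjusted p = 5.9e-06). MT-RNR1, of the small subunit, was not called in high glucose (-0.13, adjusted p = 0.1) or with chrysin (0.12, adjusted p = 0.1). It passed with high glucose 2 left out (-0.18, adjusted p = 0.044, and 0.16, 0.035), and with chrysin 2 left out in the chrysin comparison (0.17, 0.031). With limma voom MT-RNR1 also passed in high against low glucose (-0.16, adjusted p = 0.0054).

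Factors that assemble the ribosome are needed only while it is built. Of 28 tested, 12 rose and 4 fell with chrysin against high glucose (42.9% and 14.3%), with a median of 0.13. In high glucose 4 rose and 3 fell (14.3% and 10.7%), with a median of 0.02. Over all genes 24.9% rose and 20.9% fell with chrysin against high glucose, and 14.6% and 8.91% in high glucose. MTG2, a GTPase that acts on the large subunit, rose most with chrysin, from 65.3, 62.5 and 61.9 to 111, 114 and 119.8 FPKM (log2 fold change 0.86, SE 0.04, adjusted p = 1.6e-07). MRM3, which methylates the large ribosomal RNA, rose as well (0.47, adjusted p = 1.6e-05), and GTPBP8 fell (-0.59, adjusted p = 9.3e-05). ERAL1, a chaperone of the small ribosomal RNA, was not called against high glucose (0.11, adjusted p = 0.082) but passed without high glucose 1 (0.16, adjusted p = 0.0037). ERAL1 also passed with the GC and length correction, alone or with the replicate block (0.11 in each, adjusted p = 0.033 and 0.038). NSUN4, a methyltransferase of the small ribosomal RNA, was not called with chrysin (-0.09, adjusted p = 0.3) or in high glucose (-0.18, adjusted p = 0.091), though it passed in high glucose without low glucose 2 (-0.25, adjusted p = 0.017). With limma voom NSUN4 passed there too (-0.22, adjusted p = 0.022).

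Translation factors and proteins that bind the messenger RNAs act on the finished ribosome. In high glucose 8 of 15 fell and 1 rose (53.3% and 6.67%, beside 8.91% and 14.6% of all genes), with a median of -0.15. With chrysin against high glucose 12 rose (80%) and none fell, with a median of 0.29, where 24.9% of all genes rose and 20.9% fell. The 2 comparisons share the high glucose libraries. The count of 8 was 6, 5 or 4 without low glucose 1, 2 or 3 and 5 without high glucose 1 or chrysin 3. LRPPRC, which stabilises mitochondrial messenger RNAs, stood at 89.4, 87.2 and 91.1 FPKM in low glucose, 72.4, 80.4 and 77.6 in high glucose and 136, 133 and 130.2 with chrysin. It fell in high glucose (log2 fold change -0.22, SE 0.04, adjusted p = 0.0031) and rose with chrysin (log2 fold change 0.79, SE 0.04, adjusted p = 1.6e-07). MRRF, the ribosome recycling factor, was called in both comparisons too (-0.22, adjusted p = 0.011, and 0.83, adjusted p = 6.9e-07), as was OXA1L, the membrane insertase that receives new chains from the ribosome (-0.18, adjusted p = 0.0017, and 0.33, adjusted p = 7.1e-06). TUFM, the elongation factor, rose with chrysin by 0.10 (adjusted p = 0.021). That call was lost without high glucose 2 or chrysin 1 or 3 (adjusted p = 0.073, 0.0601 and 0.0598) and under both other scalings (0.08 and 0.07).

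The messenger RNAs that the mitochondrial ribosome translates rose in both comparisons, 8 of 13 in high glucose and 12 of 13 with chrysin against high glucose, with none fallen except 1 in high glucose when low glucose 2 was left out. Their medians were 0.33 and 0.42. Nuclear genes of oxidative phosphorylation were taken by symbol patterns that could also match pseudogenes. They gave 21 risen and 11 fallen of 81 with chrysin against high glucose (25.9% and 13.6%), with a median of 0.02. Over all genes 24.9% rose and 20.9% fell in that comparison. The 11 became 4 without high glucose 1 and 7, 6 and 5 without chrysin 1, 2 and 3. Cytosolic ribosomal proteins had 16 risen and 9 fallen of 85 with chrysin (18.8% and 10.6%). In high glucose 23 fell (27.1%) and none rose, where 14.6% of all genes rose and 8.91% fell. The counts of 16, 9 and 23 were 39, 7 and 56 without high glucose 1. The 23 became 11 without low glucose 1 or high glucose 2 and 13 without high glucose 3. TFAM, which packages and transcribes the mitochondrial genome, rose in high glucose (0.12, adjusted p = 0.029), a call lost without any 1 low glucose library or high glucose 2 or 3 (adjusted p = 0.061 to 0.093). It was also lost under both other scalings, with the replicate block and with only the groups compared (adjusted p = 0.051 to 0.11). With chrysin against high glucose TFAM was not called (0.09, adjusted p = 0.062). It passed without high glucose 3 (0.11, adjusted p = 0.047) and with the GC and length correction, alone or with the replicate block (0.12 in each, adjusted p = 0.0059 and 0.012). POLRMT, the mitochondrial RNA polymerase, was not called in either comparison (0.07, adjusted p = 0.2, and -0.05, adjusted p = 0.26).

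**Figure D5:**
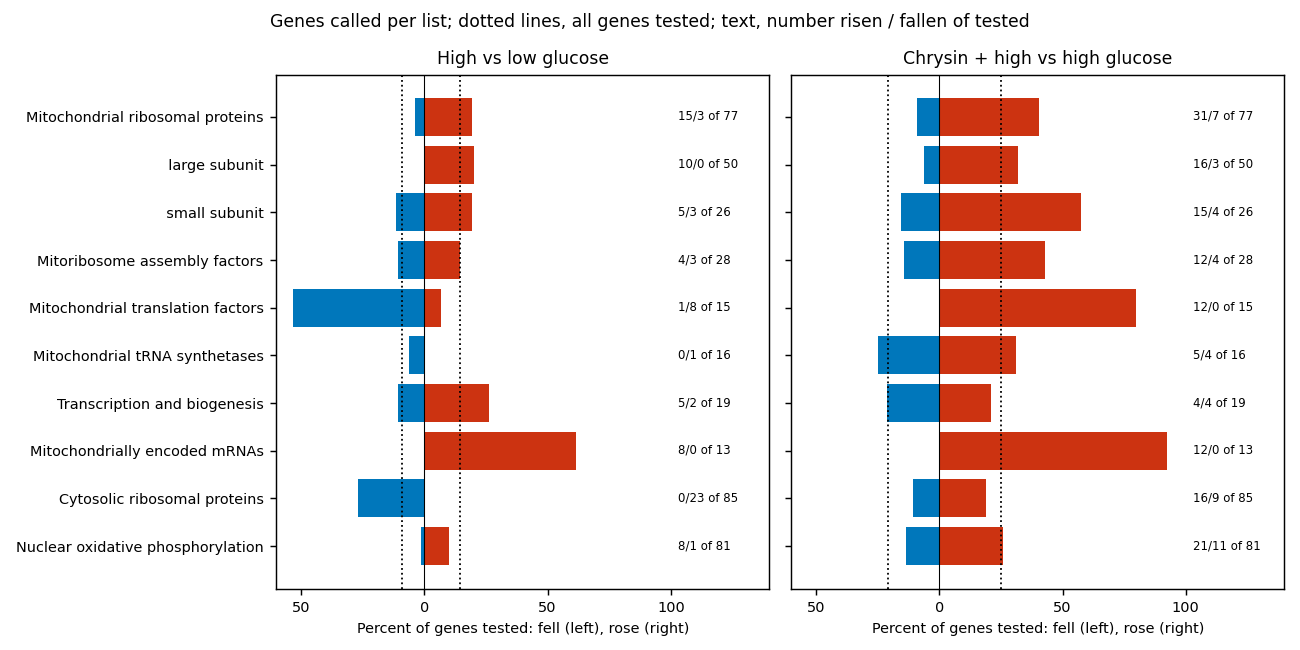
Share of tested genes that rose (right) and fell (left) in each gene list, for high against low glucose and for chrysin with high glucose against high glucose, with the shares over all 16996 genes as dotted lines. With chrysin 31 of 77 mitochondrial ribosomal proteins and 12 of 15 mitochondrial translation factors rose.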

How the data were processed

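RNA from 9 AC16 libraries was sequenced and deposited as 1 table of FPKM. Per the submitters' processing notes the tools were fastp 0.23.4, HISAT2 2.2.1, StringTie 2.2.1 and HTSeq 0.13.5 on hg38. The sources used here do not say which of them made the FPKM values, nor the annotation release or the strand setting. The deposited FPKM values of all 28230 genes above 0 in at least 2 libraries were whole multiples of 1 read to within 0.02 reads, which gave back each library's depth, and 4119 genes above 0 in 1 library were given 1 read there.

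The 16996 genes whose mean reached 0.5 FPKM in any group were fitted over all 9 libraries with limma 3.58.1 (R 4.3.3, mean-variance trend) on log2(FPKM + 0.5), with 3 two-sided contrasts and Benjamini-Hochberg adjustment over all genes tested. The fit was also run on simulated reads in which few genes changed and all genes had the same dispersion, unlike these data. Chrysin with high glucose against low glucose was not simulated, and no result here rests on that run. Locations and shared exonic bases came from GENCODE 29, which matched 54901 of 60671 rows.

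The genes and lists were chosen with earlier results of these data known. Members named were, in each comparison, up to 8 called genes with the largest rise and up to 8 with the largest fall among those with a mean log2 level of at least 1, the 3 highest and 3 lowest by level, and a set of subunits of known function. MRPL23, MRPL38, MRPS34, MRPL37, MRPL36 and MRPS11 were named after their values were seen. Alternatives were 2 other pseudocounts (0.1 and 1), no filter or a mean of 5 FPKM, limma voom on recovered reads, scaling by median of ratios, the replicate block, only the groups compared, a GC and length correction with and without that block (loess span 0.4), each library left out, and an adjusted p of 0.01.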

Additional observations from a re-analysis of the deposited data

How the results depend on the processing

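No called change of a named member turned its direction under any alternative run. Of the members called, 7 of 15 that rose and 1 of 3 that fell in high glucose were called under every alternative fit or library left out. With chrysin against high glucose these were 23 of 31 and 6 of 7, and against low glucose 34 of 41 and 3 of 5. In high against low glucose the 15 risen became 9 with limma voom, and the 3 fallen became 6 with the GC and length correction with the replicate block. At an adjusted p of 0.01 that comparison kept 8 calls, 7 risen and 1 fallen. With chrysin against high glucose the 7 fallen became 13 with the GC and length correction and 12 when the block was added. With chrysin against low glucose the 5 fallen became 10 with median-of-ratios scaling, 11 with limma voom and 3 at an adjusted p of 0.01. The causes were not tested. Leaving out 1 library gave 13 to 18 called in high against low glucose, 10 to 15 risen and 1 to 6 fallen. The count of 6 fallen came without high glucose 1, and that of 1 without low glucose 1 or high glucose 3. With chrysin against high glucose the ranges were 32 to 43 called, 26 to 37 risen and 6 to 9 fallen. Against low glucose they were 38 to 49, 34 to 43 and 4 to 6. Replicate numbers are shared between groups, and the labels do not say whether same-numbered libraries were paired. Over the genes tested, same-numbered libraries did not deviate together (correlations from -0.015 to 0.008). Such a correlation can miss a pairing that touches few genes. With the replicate number as a block the counts risen and fallen were 15 and 4, 31 and 7, and 40 and 5, in the order of comparisons used here. Depth limits MRPS24, MRPL46, MRPL2, MRPS17 and MRPL12, each under 140 reads in every library.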

Other observations

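Pseudogenes named after these genes were mostly silent. Of 76 such rows 4 passed the filter on low values. The highest was MRPL45P2 at a mean of 3.84 FPKM, followed by MRPS31P4 at 0.766, MRPL3P1 at 0.762 and MRPS31P5 at 0.669. The antisense gene MRPL20-AS1 stood at 12.8 FPKM, and since the sources used here do not say whether counting used strand, its reads and those of MRPL20 cannot be told apart where they overlap.

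Aminoacyl-tRNA synthetases of the mitochondrion, which charge the tRNAs that the ribosome uses, went in both directions. Of 16 tested, none rose and 1 fell (6.25%) in high glucose, where 14.6% of all genes rose and 8.91% fell. With chrysin against high glucose 5 rose and 4 fell (31.25% and 25%), beside 24.9% and 20.9% of all genes. The 5 became 2 without high glucose 2 and 3 without chrysin 1 or 3, and the 1 fallen in high glucose was lost without low glucose 1. The ribosomal protein genes had a median GC content of 47.6% against 48.3% over the genes tested, and their longest annotated transcripts were shorter, with a median of 1727 against 2989 bases.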
